A study of Mus musculus with 4 samples.

Results

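DNA methylation was described at 8 genes of the myeloid lineage in sorted spleen T cells: Spi1, Cebpa, Cebpb, Csf1r, Itgam, Adgre1, Fcgr3 and Lyz2. Cytosine positions were taken inside the annotated bounds of each gene with 20 kb on each side, which gave 6597 of the 25374149 positions listed genome-wide. Of these, 1143 had at least 5 reads in all 4 libraries and are called shared positions here. They filled 77 tested windows of 1 kb, each with at least 5 shared positions, out of 314517 such windows in the genome. All 8 genes were found, and 7 held at least 1 tested window. Lyz2 held 0 tested windows and was described from its 43 shared positions.

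The study crossed cell type with treatment in NOD mice, which become diabetic by spontaneous autoimmunity. CD4+CD25- effector T cells (Teff) and CD4+CD25hi regulatory T cells (Treg) were sorted by flow cytometry from the spleens of mice that had received PBS, or OX40L together with Jagged-1 (JAG1). Both treatments were given weekly for 3 weeks from the age of 6 weeks, and all cells came from mice aged 10 weeks. Each of the 4 groups, Teff and Treg with PBS and Teff and Treg with OX40L-JAG1, was 1 whole-genome bisulfite library, and the number of animals behind it is not stated in the labels. Every test below therefore compares libraries and not conditions. OX40L engages OX40, a costimulatory receptor of activated T cells, and Jagged-1 engages Notch receptors. Purity of the sorted cells was not given in the sources used here.

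PU.1, the product of Spi1, is an ETS-family transcription factor that drives myeloid and B cell development and is silenced as thymocytes commit to the T lineage. C/EBP alpha, the product of Cebpa, acts with PU.1 in granulocyte and macrophage precursors, and C/EBP beta, the product of Cebpb, acts in mature macrophages and in emergency granulopoiesis. PU.1 activates the gene of the macrophage colony-stimulating factor receptor, Csf1r, and the gene of the integrin CD11b, Itgam. Adgre1 encodes the macrophage surface protein F4/80, Fcgr3 a low-affinity receptor for the Fc part of IgG, and Lyz2 the lysozyme of granulocytes and macrophages. Bisulfite turns unmethylated cytosine into uracil, so that the share of reads still showing cytosine gives the methylation level of a position. In most mammalian tissue CpG cytosines are methylated, except at CpG-rich starts of genes and at active enhancers.

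CpG density at the gene starts differed widely among the genes, and the 250 bases before the annotated start of 4 of them show this range. In the sequences below, from RefSeq on GRCm38.p6 and written 5′ to 3′ along the gene's strand, capitals mark each CpG.
Lyz2 chr10:117282273-117282522, minus strand: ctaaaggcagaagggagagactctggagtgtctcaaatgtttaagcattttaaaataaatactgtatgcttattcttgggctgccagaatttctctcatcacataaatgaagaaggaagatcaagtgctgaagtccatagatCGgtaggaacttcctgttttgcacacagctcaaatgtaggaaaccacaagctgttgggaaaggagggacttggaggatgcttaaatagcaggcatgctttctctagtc
Itgam chr7:128062390-128062639, plus strand: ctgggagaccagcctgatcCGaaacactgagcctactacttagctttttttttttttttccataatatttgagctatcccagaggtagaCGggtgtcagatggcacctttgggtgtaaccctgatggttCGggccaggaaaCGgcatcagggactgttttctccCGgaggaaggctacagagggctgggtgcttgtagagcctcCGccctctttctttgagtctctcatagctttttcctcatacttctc
Cebpa chr7:35119043-35119292, plus strand: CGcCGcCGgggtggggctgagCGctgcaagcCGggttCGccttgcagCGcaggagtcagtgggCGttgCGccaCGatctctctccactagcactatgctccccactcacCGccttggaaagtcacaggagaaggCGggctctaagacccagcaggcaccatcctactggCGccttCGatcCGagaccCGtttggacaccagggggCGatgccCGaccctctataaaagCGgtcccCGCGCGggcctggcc
Cebpb chr2:167688665-167688914, plus strand: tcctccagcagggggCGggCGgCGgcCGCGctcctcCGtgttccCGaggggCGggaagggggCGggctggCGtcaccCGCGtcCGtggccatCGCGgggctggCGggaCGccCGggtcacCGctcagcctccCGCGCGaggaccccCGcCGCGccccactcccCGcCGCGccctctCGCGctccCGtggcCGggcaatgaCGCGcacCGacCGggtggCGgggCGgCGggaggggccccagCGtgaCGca
The Lyz2 stretch holds 1 CpG, and 92.1% of the 32851 listed promoters hold at least as many. Itgam holds 6 CpGs, which is also the median of all promoters, and Cebpa holds 22, reached by 14.8% of promoters. Cebpb holds 41 CpGs, and 1.09% of promoters hold as many. Fcgr3, not printed, holds 4 CpGs in the first of its 2 listed promoters. Promoter sequences of Spi1, Csf1r and Adgre1 were not used here.

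Across whole loci, 7 of the 8 genes carried mostly methylated DNA in all 4 T cell libraries. Cebpa was the most methylated in each library, at 92.5% in Teff and 93.6% in Treg with PBS, and 88.2% in Teff and 90.0% in Treg with OX40L-JAG1. Fcgr3 was the least methylated in each, at 27.4%, 28.7%, 25.9% and 30.5% in the same order. The median of the 8 loci was 85.0%, 85.5%, 81.2% and 84.0%, and that of 21310 protein-coding genes with the same flanks was 85.5%, 85.2%, 82.1% and 82.7%. In order of the PBS Teff level, Cebpa (92.5%) was followed by Lyz2 (91.1%), Csf1r (90.0%), Itgam (87.6%), Adgre1 (82.4%), Spi1 (75.4%), Cebpb (62.2%) and Fcgr3 (27.4%). The 95% Wilson interval of Lyz2 (88.8% to 93.0%) overlapped those of its neighbours Cebpa (91.33% to 93.6%) and Csf1r (88.5% to 91.30%), so that its place between them was not resolved. From Itgam down, the intervals of neighbours in this order did not overlap. All intervals given here cover counting error only. They say nothing of the spread between mice, and reads that cover several positions are counted at each.

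**Figure D1:**
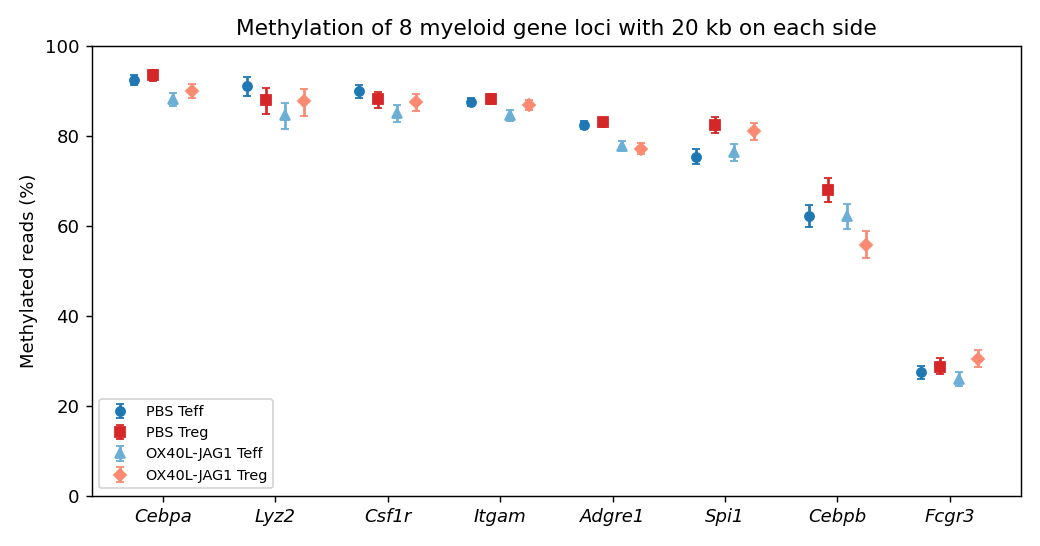
Share of methylated reads in percent (vertical axis) at each of the 8 loci with 20 kb on each side, pooled over shared positions, 1 point per library with its 95% Wilson interval as the bar. Cebpa lies highest and Fcgr3 lowest in every library, and at Spi1 both Treg libraries (82.5% and 81.1%) lie above both Teff libraries (75.4% and 76.4%).

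Within the loci, 41 of the 77 tested windows (53.2%) were at or above 80% in all 4 libraries, compared with 65.1% of all tested windows. Windows below 20% in all 4 libraries numbered 8 (10.4%), compared with 1.15% of all tested windows. Of these 8, Fcgr3 held 6, Cebpb 1 and Adgre1 1. The other 28 windows lay between or crossed these limits.

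Over positions shared by all 4 libraries, Spi1 was the one member with called windows between Treg and Teff. A pair of neighbouring windows inside its annotated bounds, at chr2:91088001-91089000 and chr2:91089001-91090000 on mm10, were higher in Treg than in Teff with PBS and again with OX40L-JAG1. The annotated gene (gene ID 20375) spans chr2:91082374-91115759, and the first of these windows begins 5627 bases above its lower-coordinate end. The annotation table used here gives no exons, so exonic and intronic sequence were not told apart, and a start site of Spi1 was not used.

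In the window chr2:91088001-91089000, with 5 shared positions, the PBS libraries had 54.0% of 126 reads methylated in Teff and 90.1% of 71 in Treg. In the OX40L-JAG1 pair the same window stood at 57.6% of 85 reads in Teff and 87.1% of 70 in Treg. Both Teff libraries were thus near the middle of the scale and both Treg libraries near its top, with no overlap between cell types. The difference was 36.2 points (95% Newcombe interval 23.7 to 46.2) with PBS and 29.5 points (15.5 to 41.7) with OX40L-JAG1. Fisher's exact test on the reads, adjusted by Benjamini-Hochberg over all 314517 windows, gave p = 6.75e-05 and p = 0.0412.

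The next window, chr2:91089001-91090000, had 7 shared positions. It stood at 52.4% of 145 reads in Teff and 83.3% of 120 in Treg with PBS, and 47.7% of 88 in Teff and 79.0% of 119 in Treg with OX40L-JAG1. Treg was again higher in both pairs, by 30.9 points (19.9 to 40.8; adjusted Fisher's exact p = 7.85e-05) and 31.3 points (18.1 to 43.2; p = 0.00415). A partly methylated position can reflect a mixture of cells or of alleles, and these cannot be told apart in bulk DNA.

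**Figure D2:**
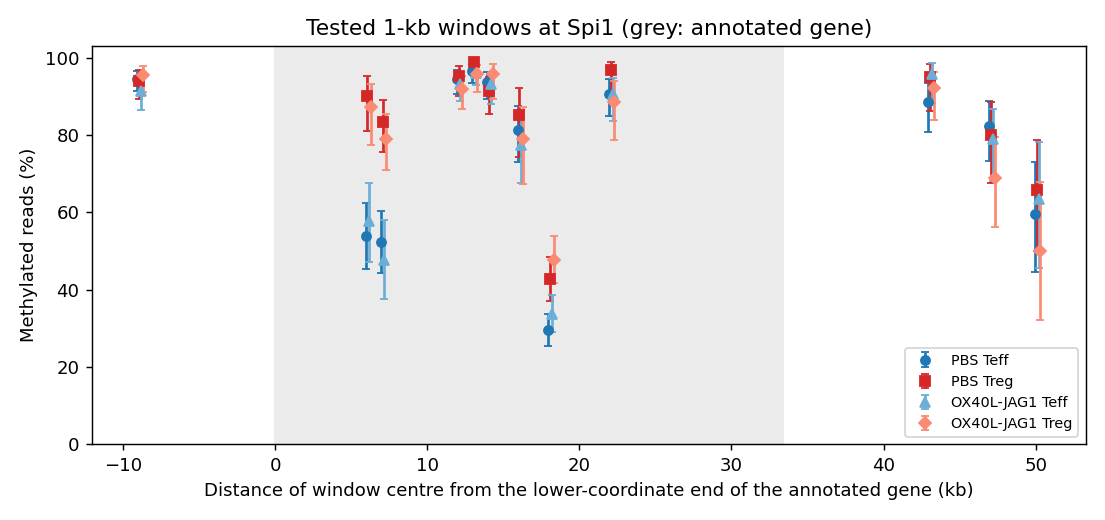
Methylated reads in percent (vertical axis) in the 12 tested windows of 1 kb at Spi1, by distance of the window centre from the lower-coordinate end of the gene in kb. Points are libraries with 95% Wilson intervals as bars, and grey marks the annotated gene. The pair of neighbouring windows with Treg above Teff lies near 6 to 7 kb, and 6 of the other 10 lie at or above 80% in all libraries.

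Called windows, here those with an adjusted Fisher's exact p under 0.05 and a difference of at least 20 points, were rare. In the PBS pair 2 of the 77 member windows were called, both higher in Treg, while 0.279% of all tested windows were called in either direction and 0.115% as higher. The OX40L-JAG1 pair had the same 2 windows called higher, against 0.114% of all tested windows called either way and 0.0547% called higher. Windows called higher in both pairs made up 0.0223% of all tested windows, 70 in number, of which Spi1 held 2. These 2 adjoin and the grid cuts 1 stretch of positions between them, so they are not 2 separate places. On a grid shifted by 500 bases 1 window held that stretch and was called in each pair. When windows were built from positions read in the pair compared, 169 member windows were tested with PBS and 3 called, both Spi1 windows and 1 beside Cebpb described below, where 0.232% of all such windows were called. With OX40L-JAG1 2 of 119 were called, both at Spi1, beside 0.0852%, and for treatment 0 of 206 in Teff and 0 of 105 in Treg, beside 0.419% and 0.075%. The Spi1 calls were lost when all read counts were divided by 3 and could not be tested with at least 10 reads at a position. With 3 positions per window the OX40L-JAG1 call of chr2:91088001-91089000 was lost too (adjusted Fisher's exact p = 0.0776). The 8 genes were chosen with earlier results of these data known, so the share among members is a description and not a test of the list.

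Between the treatments, the intervals of both Spi1 windows spanned 0 in each cell type. In Teff the first window differed by 3.68 points (-9.89 to 16.9) and the second by -4.69 points (-17.6 to 8.42). In Treg they differed by -3.00 points (-14.0 to 7.89) and -4.34 points (-14.3 to 5.62). No member window was called for treatment, 0 of 77 in Teff, where 0.559% of all tested windows were called, and 0 of 77 in Treg, where 0.101% were. A Wald test of whether the treatment difference itself differed between the cell types called 0 of 77 member windows and 0.0169% of all. Its smallest adjusted p among members was 0.693, and 3 member windows were under an unadjusted p of 0.05.

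At single positions the Spi1 difference was read mainly in a short stretch, where most shared positions lay. Between 91087859 and 91088705 PBS Treg listed no position, so coverage sets the lower edge of this stretch. How far the difference extends below it was not tested. Of the 12 shared positions of both windows, 10 lay within 502 bases, at chr2:91088705-91089206. Pooled over these 10, 50.6% of 255 reads were methylated in Teff and 85.5% of 173 in Treg with PBS, and 49.7% of 161 in Teff and 80.2% of 172 in Treg with OX40L-JAG1. Treg was higher than Teff at 10 of 10 positions with PBS, by 21.5 to 50 points, and at 10 of 10 with OX40L-JAG1, by 9.67 to 42.9 points. Neighbouring positions share reads, so these are not 10 separate measurements. The 10 also come from windows called higher in Treg, so their agreement in sign was largely set by that choice. The remaining shared positions, 2 in number at 91089878 and 91089983, were at 93.8%, 88.9%, 91.7% and 100% in the order just given, on 12 to 18 reads.

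The lowest Teff level in the stretch with PBS was at position 91089021. There 6 of 29 reads were methylated in Teff and 16 of 24 in Treg with PBS, and 4 of 14 in Teff and 12 of 17 in Treg with OX40L-JAG1. The highest Teff level with PBS in the stretch was at 91088885, with 31 of 42, 30 of 31, 22 of 26 and 33 of 35 reads methylated in the same order. Treg level also varied within the stretch: position 91089057 had 21 of 25 methylated reads in PBS Treg and 9 of 19 in OX40L-JAG1 Treg, with an unadjusted Fisher's exact p of 0.0204 and an adjusted p of 1.

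**Figure D3:**
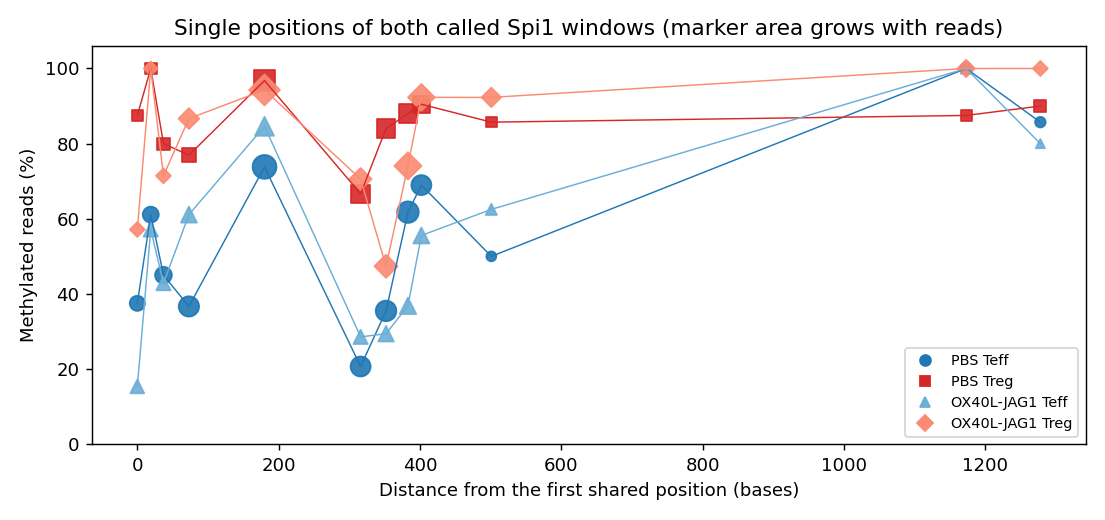
Methylated reads in percent (vertical axis) at the 12 shared positions of both called Spi1 windows, by distance in bases from the first of them. Each marker is a position in 1 library, its area grows with the reads, and lines only join positions of a library. Both Treg libraries lie above the Teff library of the same treatment at the first 10 positions, and all 4 libraries lie at or above 80% at the last 2.

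No single Spi1 position was called. With PBS, 223 positions of the locus with at least 5 reads in both libraries were tested, and 11 were under an unadjusted p of 0.05. The smallest adjusted Fisher's exact p was 0.208, at a position outside both called windows. Within the stretch the smallest unadjusted Fisher's exact p with PBS was 0.000359, at 91089057. With OX40L-JAG1, 6 of 169 were under an unadjusted p of 0.05. Over all 8 loci 0 of 2020 positions were called with PBS, against 0.00773% of all positions, and 0 of 1603 with OX40L-JAG1, against 0.00138%. At these depths the difference was seen over several positions and not at 1. Depth was also uneven between strands: at 91088884, on the opposite strand of the CpG at 91088885, the table lists 6 reads in PBS Teff, 5 in OX40L-JAG1 Treg and 0 in the other libraries, where 0 stands for fewer than 5.

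The DNA around this stretch was not uniform. The kilobase below it, chr2:91087001-91088000, was low in each library on its own listed positions, at 21.3% of 89 reads in Teff and 22.7% of 88 in Treg with PBS, and 34.8% of 23 in Teff and 24.3% of 37 in Treg with OX40L-JAG1. These positions differ between the libraries, so their levels are set side by side without a comparison. Above the stretch, own positions of chr2:91091001-91092000 were at 88.3% in Teff and 72.7% in Treg with PBS, and 75.9% in Teff and 51.9% in Treg with OX40L-JAG1, on 27 to 77 reads. Those of chr2:91092001-91093000 were at 95.8% and 66.7%, and at 88.9% and 74.2%, on 18 to 31 reads. In both kilobases the listed Treg level was the lower in each pair, but the Wilson intervals of Teff and Treg overlapped. Each library was again read on its own positions, so the cell types were not compared there. In chr2:91090001-91091000 the levels were 85.8% and 71.4% with PBS, and 92.9% and 92.3% with OX40L-JAG1. Further into the gene, chr2:91095001-91096000 was between 94.3% and 97.6% in all libraries on own positions. At 91090323 the PBS pair had 9 of 9 methylated reads in Teff and 1 of 6 in Treg. This position was not called (unadjusted Fisher's exact p = 0.002), and the OX40L-JAG1 libraries listed no reads there.

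Another partly methylated window of the gene, chr2:91100001-91101000, had 8 shared positions at 29.4% in Teff and 42.7% in Treg with PBS, and 33.6% in Teff and 47.7% in Treg with OX40L-JAG1. Treg was higher by 13.2 points (6.21 to 20.2; adjusted Fisher's exact p = 0.0479) and by 14.1 points (6.24 to 21.7; p = 0.146), which is under the 20 points asked of a call. Over the whole Spi1 locus the pairs differed by 7.14 points (4.62 to 9.60) and 4.71 points (1.98 to 7.40). Both lie above the 95th percentile of all protein-coding genes, 3.28 and 3.996 points, and the called windows are part of these values. Cebpb with PBS (5.75 points) and Fcgr3 with OX40L-JAG1 (4.56 points) lie above it too, while Cebpb with OX40L-JAG1 was at -6.28 points. With each position counted once, the Spi1 locus differed by 6.45 points with PBS and 2.53 points with OX40L-JAG1.

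Elsewhere in the genome, the 5 windows with the levels most like those of chr2:91088001-91089000 were found by Euclidean distance over the 4 libraries. Only tested windows that overlap a protein-coding gene with 20 kb on each side were searched. The closest lay in Mettl7a1 at 7.10 points, at 53.4%, 84.5%, 55.3% and 83.6%. It was followed by windows in Ggt5 (9.08 points), Clec16a (9.17 points) and Tet3 (9.99 points), and by one in the flanks of Gm31493 and 4930523C07Rik (10.2 points). The Ggt5 window and the last of these were called higher in Treg in both pairs. The likeness rests on 4 values per window.

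Markers of other cells were read for the same libraries. The 8 B cell genes, which matter here because B cells express Spi1, held 97 tested windows, and 0 genes had a called window in any of the 4 comparisons. Pooled over the list, B cell genes were at 72.6% in Teff and 71.7% in Treg with PBS, and 69.0% in Teff and 69.3% in Treg with OX40L-JAG1. The other 35 myeloid genes, among them Cd14, Mpo, Elane, Itgax and Irf8, held 224 windows with 0 called in any comparison, and were at 84.0%, 84.2%, 81.2% and 81.8%. Their median locus difference between Treg and Teff was 0.218 points with PBS and 0.382 points with OX40L-JAG1. Neither the 3 NK cell genes nor the 2 CD8 T cell genes held a called window. Of all tested windows, 0.279% were called with PBS and 0.114% with OX40L-JAG1 for cell type, and 0.559% in Teff and 0.101% in Treg for treatment. Having 0 calls in lists of this size is near these shares. The Treg label was checked at Foxp3, the master regulator of Treg, whose window chrX:7580001-7581000 was lower in Treg in both pairs, with differences of -53.6 and -47.8 points. Of 9 genes expressed across CD4 T cells, 3 held a window called higher and 1 a window called lower in PBS Treg. Among 20866 protein-coding genes, 1.73% held a higher and 2.34% a lower window. Cd3d, Cd3e and Cd3g, which encode chains of the T cell receptor complex, share the window chr9:44999001-45000000, at 14.6% in Teff and 38.5% in Treg with PBS. It was also called higher in Teff with OX40L-JAG1, at 38.5%. Lat, an adaptor of T cell receptor signalling, differed by -28.0 points at chr7:126344001-126345000. In the OX40L-JAG1 pair 0 of the 9 genes held a called window, beside 0.872% of protein-coding genes with a higher and 0.767% with a lower one. The part of other cells in the Spi1 difference was not tested.

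Among 18 genes chosen for known links to Spi1 or PU.1, calls went in both directions. In the PBS pair Runx1, Gfi1 and Tcf7 each held a window higher in Treg and Irf4 windows lower in Treg, beside 1.73% and 2.34% of 20866 protein-coding genes with a higher or lower window. Runx1, which binds and regulates Spi1, was at 48.3% in Teff and 78.8% in Treg at chr16:92716001-92717000. Irf4, a PU.1 partner in lymphocytes, was at 76.4% in Teff and 34.4% in Treg at chr13:30751001-30752000. In OX40L-JAG1 Teff the same Runx1 and Irf4 windows were at 72.4% and 31.1%, nearer to PBS Treg, and both were called against PBS Teff. Neither gene held a called window in the OX40L-JAG1 pair. In the OX40L-JAG1 pair Ikzf1 and Tcf7 held a window higher in Treg and Gata3 one lower in Treg, beside 0.872% and 0.767% of genes. Of the 18 genes, 1 was called higher in both pairs: Tcf7, which encodes the T cell factor TCF1, was at 6.99% in Teff and 41.7% in Treg with PBS, and at 29.7% and 67.9% with OX40L-JAG1. Treatment calls were 4 genes higher and 1 lower in Teff, and 2 higher and 0 lower in Treg, beside 1.36% and 4.97% of genes in Teff and 0.312% and 0.944% in Treg. With 1 library per group, PBS Teff is part of both the PBS pair and the Teff comparison, and their values are not independent.

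**Figure D4:**
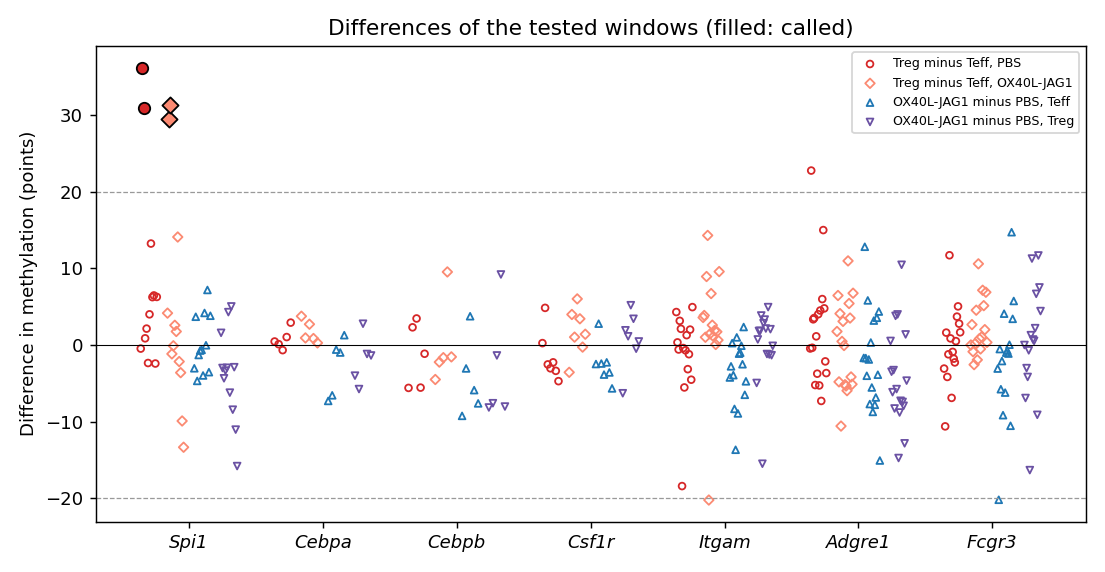
Differences in methylation in percentage points (vertical axis) of all 77 tested windows, grouped by gene, with 1 marker shape per comparison. Filled markers are called windows and dashed lines mark 20 points in each direction. The called windows are all at Spi1 and lie between 29.5 and 36.2 points, and the windows of the other genes lie between -20.2 and 22.7 points.

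Few methylated reads were found at the Cebpa start in the 3 libraries that covered it, and at the Cebpb start in the 1 library that covered it well. Within 1 kb of the Cebpa start, methylated reads made up 1.27% of 236 in PBS Teff (95% Wilson interval 0.433% to 3.67%) and 0.730% of 137 in OX40L-JAG1 Treg (0.129% to 4.02%). PBS Treg listed 0 methylated of 15 reads there, with an upper Wilson bound of 20.4%, and OX40L-JAG1 Teff listed no position. Around the Cebpb start 0.641% of 156 reads were methylated in PBS Treg, 5 reads at 1 position were all methylated in OX40L-JAG1 Teff, and the other libraries listed none. The libraries read different positions here, so the start sites were not compared. Their CpG-dense sequences are those printed above.

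All 5 tested windows of Cebpa (gene ID 12606, chr7:35119293-35121928) were at 80% or more in every library. The one farthest from 0 was chr7:35101001-35102000, at 93.3% in Teff and 93.8% in Treg with PBS, and 86.0% in Teff and 89.8% in Treg with OX40L-JAG1. Its Teff difference of -7.30 points (-11.7 to -3.07; adjusted Fisher's exact p = 0.0357) was under the 20 points of a call. All tested windows of the genome had a median Teff difference of -2.82 points between the treatments, and over all shared positions the Teff level was 85.2% with PBS and 81.6% with OX40L-JAG1.

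At Cebpb the window chr2:167690001-167691000 covered the higher-coordinate end of the gene (gene ID 12608, chr2:167688915-167690432) with 14 shared positions, where A530013C23Rik is annotated as well. It was at 4.95% in Teff and 8.40% in Treg with PBS, and 8.70% in Teff and 7.04% in Treg with OX40L-JAG1, low throughout. The pooled Cebpb locus differed by -12.2 points (-16.1 to -8.18) between OX40L-JAG1 and PBS in Treg. Beside this, the low window had 355 reads in OX40L-JAG1 Treg and 238 in PBS Treg, and the mean over positions, with each position counted once, differed by -2.37 points. Of the regular windows, the interval farthest from 0 was at chr2:167703001-167704000 in the flank, 9.20 points (2.68 to 17.1) higher in Treg with OX40L-JAG1 than with PBS and not called (adjusted Fisher's exact p = 0.269). A flank window 1915 bases from Cebpb, chr2:167686001-167687000, had 4 shared positions, fewer than the 5 required. It was at 58.3% in Teff and 84.7% in Treg with PBS, and 70.9% in Teff and 89.3% in Treg with OX40L-JAG1. The PBS difference of 26.4 points (13.9 to 37.4) would be called if 3 positions sufficed (adjusted Fisher's exact p = 0.0249, beside 0.172% of all windows called under that rule). Over the 6 positions read in both PBS libraries the window was called without lowering the minimum, at 54.7% in Teff and 82.1% in Treg (27.4 points, adjusted Fisher's exact p = 0.00799). On the 4 shared positions the OX40L-JAG1 difference of 18.4 points was not called (adjusted Fisher's exact p = 0.780, beside 0.0529%). This window was singled out after its values were seen.

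Csf1r (gene ID 12978, chr18:61105572-61131139) encodes the receptor through which macrophage colony-stimulating factor sustains monocytes and macrophages. Its 7 tested windows had differences between -6.29 and 6.01 points in all 4 comparisons, and every 95% interval spanned 0. Of the 7 windows, 5 were at 80% or more throughout. The lowest, chr18:61095001-61096000 in the flank, was at 50% of 42 reads in Teff and 54.8% of 31 in Treg with PBS, and 52.8% of 36 in Teff and 56.8% of 37 in Treg with OX40L-JAG1.

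At Itgam, the gene of CD11b (gene ID 16409, chr7:128062640-128118491), 13 of 15 windows were at 80% or more in all libraries. The window chr7:128089001-128090000, inside the gene, had 9 shared positions and stood at 62.6% of 147 reads in Teff and 44.2% of 129 in Treg with PBS, and 48.9% of 139 in Teff and 28.7% of 108 in Treg with OX40L-JAG1. Here Treg was the lower library in both pairs, opposite to Spi1, by -18.4 points (-29.5 to -6.61) and -20.2 points (-31.5 to -7.95). Neither difference was called, with adjusted Fisher's exact p = 0.261 and p = 0.306. On a grid shifted by 500 bases the window chr7:128088501-128089500 was called lower in PBS Treg, at 41.9% against 65.0% in Teff (-23.1 points, adjusted Fisher's exact p = 0.0294, beside 0.283% of windows called on that grid). With OX40L-JAG1 it was not called (-21.9 points, adjusted Fisher's exact p = 0.116, beside 0.108%). Thus the call at Itgam depended on where the windows began.

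The start of Itgam, within 1 kb, held 5 shared positions at 71.1% of 90 reads in Teff and 89.2% of 37 in Treg with PBS, and 80% of 60 in Teff and 92.2% of 51 in Treg with OX40L-JAG1. A window with 3 shared positions, chr7:128068001-128069000, was at 23.8% in Teff and 45.3% in Treg with PBS, and 50.4% in Teff and 58.0% in Treg with OX40L-JAG1, so that PBS Teff was the lowest library. Its Teff treatment difference of 26.6 points (14.7 to 37.4) passed the thresholds when 3 positions were enough (adjusted Fisher's exact p = 0.00395, beside 0.454% of all windows in Teff).

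Adgre1, the F4/80 gene (gene ID 13733, chr17:57358581-57483529), held the single positions that were called for treatment. Position 57472499 had 153 of 160 reads methylated in Teff and 82 of 88 in Treg with PBS, and 77 of 111 in Teff and 44 of 66 in Treg with OX40L-JAG1. Position 57472534 had 130 of 154, 69 of 104, 60 of 108 and 31 of 83 in the same order. Both OX40L-JAG1 libraries lay below the PBS library of their cell type at both positions. In Teff, the differences of -26.3 points and -28.9 points were called (adjusted Fisher's exact p = 0.000287 and p = 0.0101 over all tested positions). These were 2 of the 2462 member positions tested in Teff, where 0.00868% of all positions were called. Neighbouring positions can share reads, so these 2 may not be separate measurements. In Treg 0 of 1456 member positions were called, against 0.000214% of all.

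With position 57472193 they form the only shared positions of chr17:57472001-57473000, which was at 89.1% in Teff and 77.5% in Treg with PBS, and 62.8% in Teff and 49.4% in Treg with OX40L-JAG1. With 3 positions allowed the window was called lower in Teff (-26.3 points, -33.2 to -19.4) and in Treg (-28.1 points, -37.3 to -18.4), where 0.454% and 0.0461% of all windows were called. These positions were read far more deeply than others: the median of the 3 was 154 reads in PBS Teff, beside a median of 15 reads at member positions in that library. Whether reads from other copies of the sequence were placed there was not tested.

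Among the 17 regular Adgre1 windows, the one with the PBS interval farthest from 0 lay in the flank, chr17:57339001-57340000. It was at 39.8% in Teff and 62.5% in Treg with PBS, and 52.6% in Teff and 59.0% in Treg with OX40L-JAG1. The PBS difference of 22.7 points (6.96 to 37.0) was not called (adjusted Fisher's exact p = 0.418). Next to it, chr17:57338001-57339000 was at 6.48%, 6.03%, 4.79% and 6.56%, low in every library, in a stretch with no annotated gene of the table. Of the 17 windows, 8 were at 80% or more in all libraries.

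Fcgr3 (gene ID 14131, chr1:171051169-171065915) was the least methylated of the 8 loci. Its region with flanks (chr1:171031169-171085915) holds 20 annotated tRNA genes, and 6 of its 16 tested windows contain one. These 6 windows were pooled at 7.67% in Teff and 7.30% in Treg with PBS, and 5.10% in Teff and 7.90% in Treg with OX40L-JAG1. The 10 windows without a tRNA gene were pooled at 39.1%, 39.3%, 39.4% and 44.2%, and ranged from 4% to 87.1% in PBS Teff. The densest window, chr1:171064001-171065000, with 54 shared positions, lies inside the annotated bounds of Fcgr3 and overlaps the tRNA genes n-TEctc5 and n-TGtcc1, and was at 3.50%, 2.60%, 2.50% and 3.32%. tRNA genes occur in near-identical copies, so the placement of reads among them is uncertain.

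**Figure D5:**
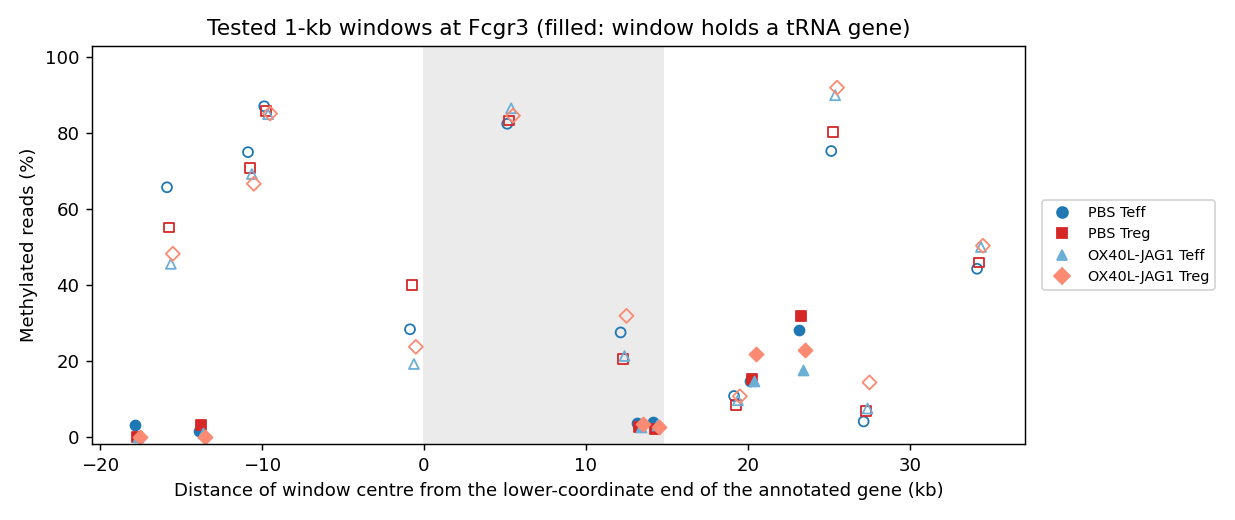
Methylated reads in percent (vertical axis) in the 16 tested windows of 1 kb at Fcgr3, by distance of the window centre from the lower-coordinate end of the gene in kb. Marker shapes stand for libraries, filled markers are windows that hold a tRNA gene, and grey marks the annotated gene. The 6 windows with a tRNA gene lie at or below 31.9% in every library, and the 4 libraries lie close together in most windows.

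No Fcgr3 window was called. The one with the interval farthest from 0, chr1:171035001-171036000, was at 65.7% in Teff and 55.1% in Treg with PBS, and 45.6% in Teff and 48.2% in Treg with OX40L-JAG1, and its Teff difference was -20.2 points (-33.1 to -6.30; adjusted Fisher's exact p = 0.107). Fcgr3, on the minus strand, has 2 annotated starts. The window at the higher-coordinate end of its bounds, chr1:171065001-171066000, holds tRNA genes and was at 3.91%, 2.13%, 3.18% and 2.67%. The first listed start, at 171059403, lies inside the bounds, and the other was not read. Within 1 kb of the first the PBS libraries had 52.3% of 86 reads methylated in Teff and 46.6% of 58 in Treg. OX40L-JAG1 Teff and Treg had 38.2% of 34 and 41.7% of 12 there, on their own positions.

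Lyz2 (gene ID 17105, chr10:117277541-117282272), an enzyme gene read at few positions, was methylated at 91.1% of 710 reads in Teff and 88.0% of 500 in Treg with PBS, and 84.6% of 579 in Teff and 87.7% of 470 in Treg with OX40L-JAG1. Treg minus Teff was -3.13 points (-6.79 to 0.329) with PBS and 3.03 points (-1.22 to 7.17) with OX40L-JAG1. The Teff treatment difference, -6.50 points (-10.2 to -2.93), lies within the range of the central 90% of protein-coding genes, -6.72 to 1.12 points. Its CpG-poor start was methylated with PBS at 69.9% of 146 reads in Teff and 76.3% of 59 in Treg, and at 64.1% of 39 and 86.4% of 44 reads in the OX40L-JAG1 libraries, on different positions.

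The loci were last set beside all genes. The median difference of the 8 loci was 0.854 points between PBS Treg and Teff, where all protein-coding genes had a median of -0.301 points, and 2.37 points with OX40L-JAG1, where all genes had 0.538. With treatment the median was -3.67 points in Teff and -1.37 points in Treg, beside -2.89 and -2.07 points for all genes. The PBS median was 0.0998 points with each position counted once, 0.311 with flanks of 5 kb, 0.529 over positions read in the pair compared and 0 without flanks. With OX40L-JAG1 it was 1.45 without flanks and 1.19 with at least 10 reads, a minimum at which the treatment median in Treg was -2.91. Medians without flanks rest on 7 loci. Of the 8 loci 6 were above 0 in each cell type comparison and 7 were below 0 in each treatment comparison.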

How the data were processed

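Per the submitters' processing notes, Trimmomatic and Bismark were used with the mouse build mm10; versions, settings and duplicate removal are not given in the sources used here. Per the file headers, the deposited table gives for each cytosine position and library a read count, a methylated read count, and a level that is a fraction from 0 to 1, as deposited by the authors. Nonzero counts are at least 5. NOD reads were set against the mm10 reference, and a strain variant at a CpG was not told apart from an unmethylated cytosine.

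The listed reads numbered 208402911 in Teff and 131555634 in Treg with PBS, and 159291553 in Teff and 103584075 in Treg with OX40L-JAG1, which is not the full sequencing depth. The median shared position had 14, 10, 11 and 9 reads. Methylated and total reads were taken from the table and summed in fixed windows of 1 kb, leaving out the mitochondrial genome. Fisher's exact test (two-sided, own implementation compiled with numba 0.67.0) and Benjamini-Hochberg adjustment ran over all windows, and separately over all positions with at least 5 reads in both libraries. A window or position was called at an adjusted p under 0.05 and at least 20 points. The interaction used a Wald test with 0.5 added to each cell. Gene bounds came from RefSeq on GRCm38.p6, and 99.9854% of listed positions in its promoters fell on a CpG.

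The genes described are the 8 members; every called window is described, and for a gene with none, the window whose interval lies farthest from 0, or else its lowest window. The members, gene lists and tests were chosen with earlier results of these data known. Alternatives covered read and position minimums, positions read in the pair compared only, the grid, the flank, strand summing, weighting, centring and fewer reads.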

Additional observations from a re-analysis of the deposited data

How the results depend on the processing

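The alternatives left the Spi1 direction as reported wherever its windows could be tested, and changed how many member windows were called. With at least 10 reads at a position, 32 member windows remained and neither Spi1 window was among them, so that 0 were called in both Treg against Teff comparisons. With all read counts divided by 3, 0 were called in both. There the Spi1 window chr2:91088001-91089000 differed by 36.5 points with PBS and 29.8 points with OX40L-JAG1 and was called in neither. With 3 positions per window, the OX40L-JAG1 pair had 1 called window, the same Spi1 window kept its 29.5 points without the call, and the treatment comparisons had 2 in Teff and 1 in Treg. Over positions read in the pair compared, 3 windows were called with PBS, the added one beside Cebpb. On the grid shifted by 500 bases the OX40L-JAG1 pair had 1, a window that holds the 10 positions of the Spi1 stretch. An alternative chosen after seeing the data, at least 10 reads with 3 positions, gave 1 called window for Treg against Teff with PBS, 1 with OX40L-JAG1, and for treatment 2 in Teff and 1 in Treg.

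Without flanks the median locus difference of the PBS pair moved to 0 points, over 7 loci. In the OX40L-JAG1 pair the median locus difference moved to 1.19 points with at least 10 reads. In Teff it moved to -2.51 points with flanks of 5 kb and -2.79 points with at least 10 reads, and in Treg to -2.91 points with at least 10 reads. Fewer positions or reads were tested in these settings. Counts of called positions stayed within 1.5 times the reported ones in the 8 alternatives run. No paired analysis was possible because the groups share only 1 replicate number, and a fit with treatment as a block was not run. No replicate could be left out, since each group is 1 library. Single positions had a median of 9 to 14 reads.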
